A study of Homo sapiens with 6 samples.

Results

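The proteasome genes were followed here through NAT10 RNA immunoprecipitation (RIP-seq), through the matched Input RNA and through the peaks of N4-acetylcytidine (ac4C), which were mapped by acetylated RNA immunoprecipitation (acRIP-seq). Members were the protein-coding genes of the RIP table whose symbol is PSM, a letter from A to G and a number, and 49 of 58302 genes met this rule. One of them, PSMC3IP, is not a proteasome gene but encodes a partner of the meiotic recombinases and carries the name of the subunit it was found to bind, so 48 proteasome genes remained. The cells were SW480 and DLD-1, both human colorectal cancer (CRC) lines, wild type by their labels and untreated. Each line had 1 Input library of total RNA, 1 library of RNA recovered with a NAT10 antibody (RIP) and 1 library of fragmented RNA recovered with an ac4C antibody (acRIP). There were no replicates, so each ratio compares 2 libraries, carries no p-value and has no replicate check.

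The proteasome is the protease that degrades proteins tagged with ubiquitin. Its 20S core is a barrel of outer alpha rings (PSMA genes), which gate the entry, and inner beta rings (PSMB genes), which hold the catalytic sites. The 19S cap recognizes and unfolds the substrate, with a base of ATPases (PSMC genes) and scaffold proteins and a lid (PSMD genes) that removes ubiquitin. Under interferon, PSMB8, PSMB9 and PSMB10 replace PSMB5, PSMB6 and PSMB7 to form the immunoproteasome. Alternative activators (PSME genes), an inhibitor (PSMF1) and assembly chaperones (PSMG genes, PSMD5, PSMD9 and PSMD10) complete the family. NAT10 is the acetyltransferase that writes ac4C on RNA.

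Levels are FPKM, fragments per kilobase of gene model scaled to library size, as deposited, so that they can be compared between genes. The whole reads solved from these values summed to 26869665 or more for SW480 RIP, 13016716 for SW480 Input, 22725202 for DLD-1 RIP and 11988748 for DLD-1 Input. Across 10350 protein-coding genes that reached 1 FPKM in the Input of each line, the log2 level in the RIP library labelled SW480 correlated more with the Input labelled DLD-1 (Pearson's r = 0.89) than with the Input of its own label (r = 0.80). The RIP library labelled DLD-1 in turn correlated more with the Input labelled SW480 (r = 0.90) than with its own (r = 0.78). KRT20, a keratin of the colonic epithelium, was at 29.2 FPKM in the Input labelled SW480 and 23.9 in DLD-1 RIP, but at 0.0426 and 0 in the other pair. By these values, each RIP library was closer to the Input of the other label, and whether libraries were exchanged was not tested. Labels were kept as given, and ratios are given with the Inputs exchanged as well. All 8 epithelial markers checked were above 0 in each Input, with EPCAM at 324 FPKM in SW480 and 127 in DLD-1. However, KRT20 (0.0426 FPKM) and VIL1 (0.261) were near 0 in the Input labelled DLD-1. The lowest of the 8 in the Input labelled SW480 were LGALS4 (0.936) and VIL1 (1.13). The markers of leukocytes, endothelium and fibroblasts did not exceed 0.381 FPKM (COL1A1) in any library. Both COL1A1 and PECAM1 were also above 0 in each Input. In the Input labelled DLD-1, COL1A1 (0.187) and PECAM1 (0.163) were above KRT20.

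Most proteasome genes were well expressed. Of the 49 members, 44 reached 1 FPKM in the Input of each line and entered the ratios. Their median level was 26.6 FPKM in the Input labelled SW480 and 20.5 in the Input labelled DLD-1, against 9.96 and 10.4 for all protein-coding genes that passed the same filter. In 3 of the 4 libraries the highest member was PSMA7, an alpha-ring subunit, with 177 FPKM in SW480 RIP, 175 in SW480 Input, 139 in DLD-1 RIP and 219 in DLD-1 Input. In DLD-1 RIP, PSMB3 was highest at 175. The lowest of the 44 in 3 of the 4 libraries was PSMD9, a chaperone of base assembly, with 1.45, 2.35, 2.04 and 2.21 FPKM in the same order, and in DLD-1 RIP it was PSMG4 at 2.03. Every list of 4 values below keeps this order of libraries.

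**Figure D1:**
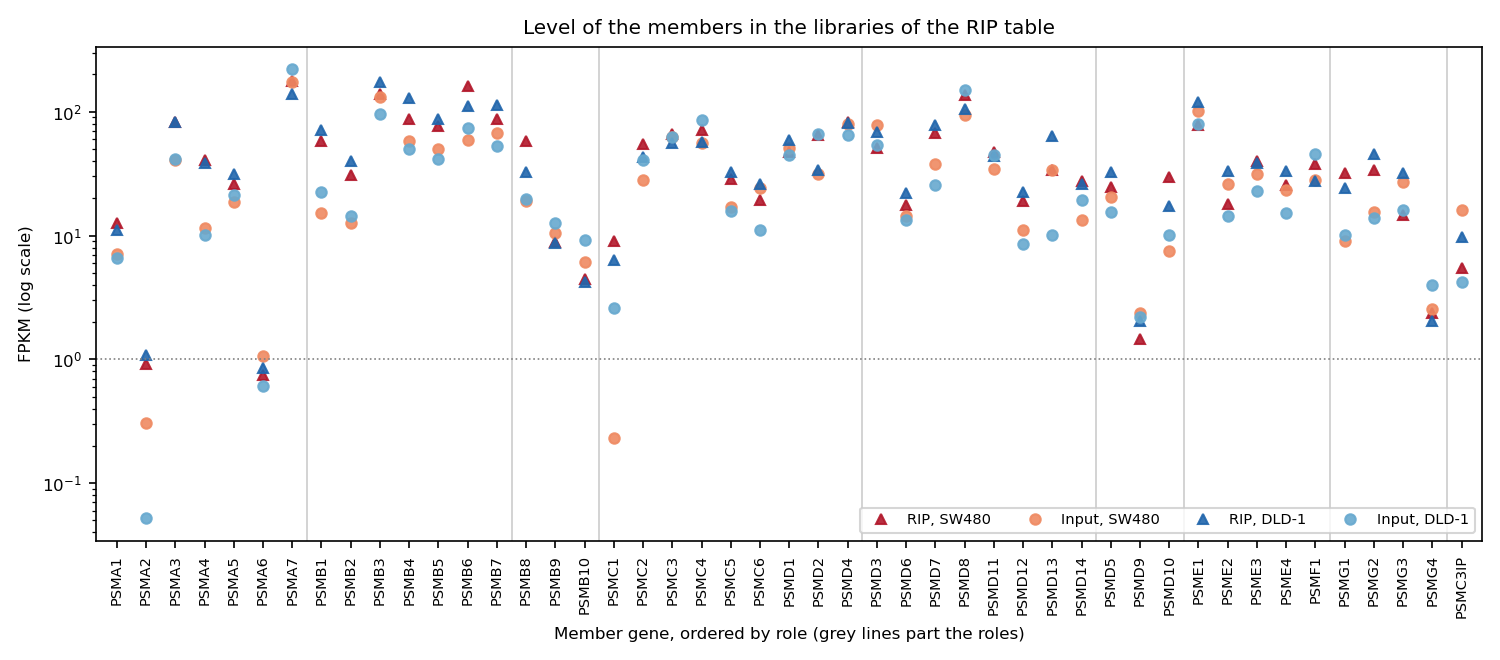
FPKM on a log axis of the 47 members with reads, in the 4 libraries of the RIP table, with triangles for RIP and circles for Input. PSMA2 and PSMA6 lie near or under the dotted line at 1 FPKM, and PSMC1 drops to 0.231 in the Input labelled SW480, while most other members lie between 10 and 100 FPKM.

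The 5 members outside the ratios were of different kinds. PSMA8, an alpha subunit of spermatocytes, and PSMB11, the beta subunit of the thymic cortex, had no read in any of the 4 libraries, which allows up to 3 reads in each. PSMA2, an alpha subunit present in every core, had only 0.921, 0.306, 1.09 and 0.0523 FPKM, from 116, 19, 117 and 3 reads. PSMA6, likewise an obligate alpha subunit, had 0.742, 1.07, 0.848 and 0.611 FPKM. PSMC1, an ATPase of the base, had 9.03, 0.231, 6.34 and 2.61 FPKM, and its SW480 Input held 15 reads. In the Inputs of the second deposited table, however, PSMC1 stood at 9.35 FPKM in SW480 and 10.3 in DLD-1, which after scaling was 3.55 and 2.19 above the RIP table on the log2 scale. It was the largest difference between both tables among the members, and 46 of 49 members in SW480 and 45 of 49 in DLD-1 were within 2-fold. The annotation places PRORP-PSMA6 over PSMA6 and NRDE2 over PSMC1, and 21 of the 49 members share bases with another annotated gene. The strand setting of the counting is not stated, and pseudogenes such as PSMC1P1 (6.47, 1.66, 4.57 and 1.18 FPKM) can take reads of their parent gene. Whether read assignment lowers these 3 genes was not tested.

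The first question was how NAT10 RIP compares with Input. In the libraries labelled SW480, 9 of 44 members were at least 2-fold above Input and 1 was at least 2-fold below. The same thresholds were passed by 15.6% and 16.0% of the 12324 genes held to the same floor of 1 FPKM in each Input. In the libraries labelled DLD-1, 16 of 44 members were at least 2-fold above Input and 0 were below, beside 15.1% and 19.2% of all genes. Among the protein-coding genes held to the same floor, 17.4% were above and 9.17% below in SW480, and 16.7% and 12.8% in DLD-1. A pseudocount of 1 FPKM was added to RIP and Input before the log2 ratio was taken, which draws the ratios of weakly expressed genes toward 0. Members had a median log2 ratio of 0.40 for SW480 and 0.70 for DLD-1. All genes tested had medians of 0.05 and -0.05, and the protein-coding genes among them 0.18 and 0.07. Centering each ratio on that protein-coding median left 7 members above and 2 below in SW480, and 13 above and 2 below in DLD-1. Of all genes, 11.8% were then above and 19.5% below for SW480, and 13.8% and 20.9% for DLD-1. The 2 members below were PSMC3IP and PSMG3 in SW480, and PSMB10 and PSMD2 in DLD-1. Over the scaled Inputs of the second table, 0 of the SW480 calls and 6 of the 16 DLD-1 calls were lost, the latter for PSMB1, PSMB2, PSMG1, PSMD5, PSMD7 and PSMC3IP. Newly past 2-fold were 4 members in SW480 and 8 in DLD-1, which gave 13 and 18 above. Over the same Inputs, 19.1% and 18.0% of all genes were above, and 19.7% and 18.4% of the protein-coding genes.

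With the Inputs exchanged between labels, 11 of 44 members were at least 2-fold above Input for SW480 RIP and 9 of 44 for DLD-1 RIP. Among all genes these shares were 9.24% and 9.36%. None of the 44 was at least 2-fold below in either, beside 11.7% and 11.8% of all genes. The protein-coding genes had 10.1% and 10.0% above, and only 3.93% and 4.51% below. The members' medians were 0.51 and 0.54 on the log2 scale, beside 0.02 and -0.00 for all genes. Counting error on a member's log2 ratio was between 0.03 and 0.15 (SE), and was 0.05 at the median in SW480 and 0.06 in DLD-1. These errors cover the sampling of reads alone, and PCR copies are not independent molecules.

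Both labels had the same sign for 29 of the 44 members, 25 of them above 0 (56.8%) and 4 below (9.09%). Of all genes, 28.2% were above 0 in both labels and 28.1% below. Among the protein-coding genes these shares were 31.6% and 20.8%. At least 2-fold above Input in both labels were 5 members, or 11.4%, beside 3.55% of all genes. In both labels, 0 members were 2-fold below, beside 7.29% of all genes. The protein-coding genes had 3.86% above and 1.26% below in both, so the absence of members below is near their share. After that exchange, 7 members were 2-fold above in both labels, beside 5.59% of all genes, and 0 were below, beside 8.41%. The protein-coding genes then had 6.15% above and 1.97% below. The 5 members of the first count were among these 7, so they passed 2-fold in all 4 ratios, as did 3.23% of all genes. Likewise, 25 of the 44 members were above 0 in all 4 ratios, beside 26.6% of all genes.

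**Figure D2:**
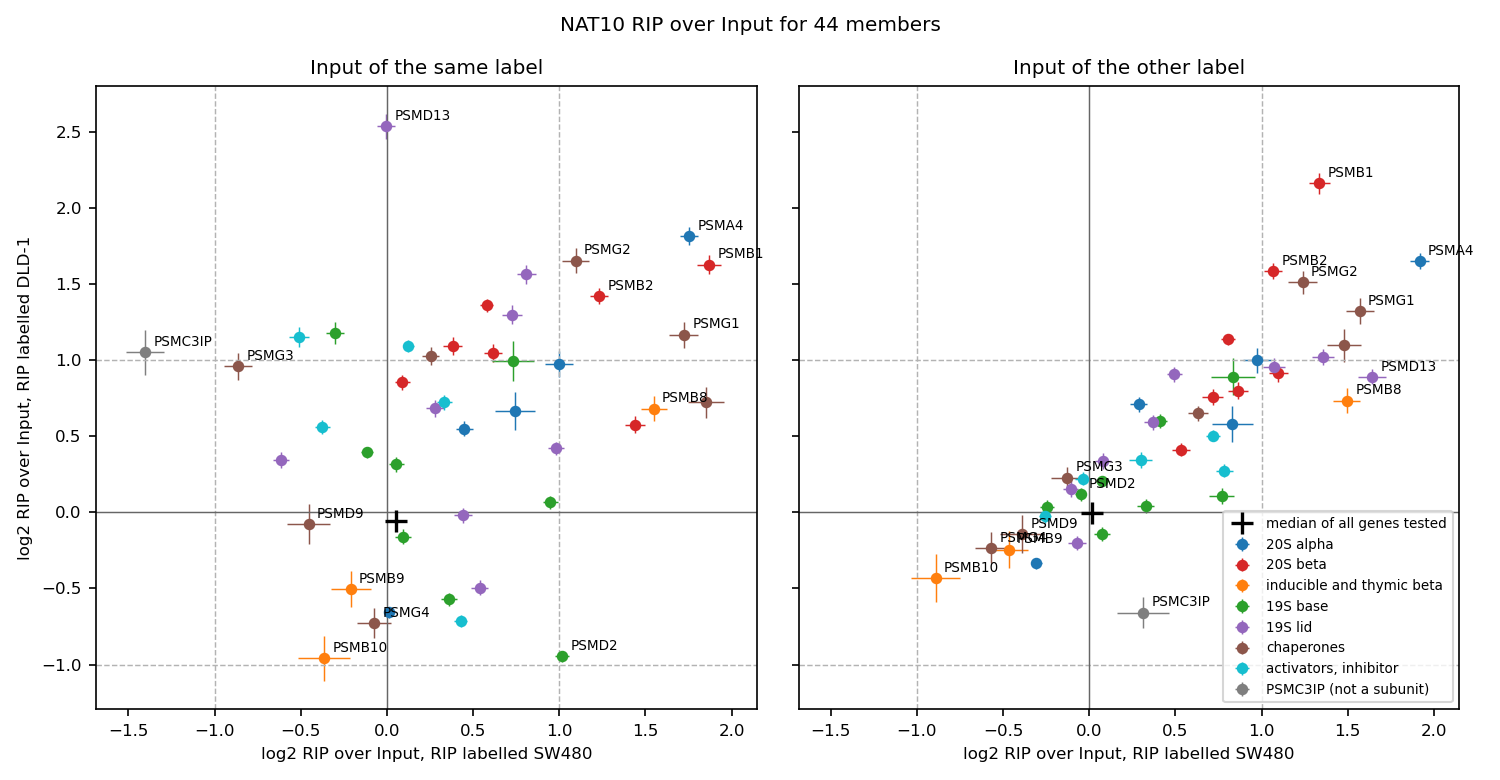
Log2 NAT10 RIP over Input of 44 members, with the RIP library labelled SW480 on the horizontal and that labelled DLD-1 on the vertical axis. The left panel uses the Input of the same label and the right panel that of the other label. Bars are counting SEs, dashed lines mark 2-fold and the cross is the median of all 12324 genes. PSMA4, PSMB1, PSMB2, PSMG1 and PSMG2 lie beyond 2-fold on both axes of both panels. PSMD2, PSMG3 and PSMC3IP lie toward the upper left or lower right corner of the left panel and leave it in the right one. PSMD13 lies at -0.004 and 2.54 in the left panel and at 1.64 and 0.89 in the right one.

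The member with the highest smaller-of-both-labels ratio was PSMA4, an alpha-ring subunit. It had 41.0, 11.5, 38.2 and 10.1 FPKM. Both RIP libraries were thus far above both Inputs, by 1.75 ± 0.05 (counting SE) on the log2 scale in SW480 and 1.82 ± 0.06 in DLD-1, and by 1.92 ± 0.06 and 1.65 ± 0.05 over the other Input. The next was PSMB1, a structural beta subunit without an active site, with 58.3, 15.2, 71.7 and 22.5 FPKM. Its log2 ratios were 1.87 ± 0.07 and 1.63 ± 0.06, and over the other Input 1.33 ± 0.06 and 2.16 ± 0.07. PSMB2, also a structural subunit of the beta ring, had 31.0, 12.6, 40.0 and 14.3 FPKM, and log2 ratios of 1.23 ± 0.05 and 1.42 ± 0.05. The remaining members of the top 5 were PSMG1 and PSMG2, which form the dimer that starts alpha-ring assembly. PSMG1 had 32.1, 9.02, 24.1 and 10.1 FPKM, with log2 ratios of 1.72 ± 0.08 and 1.17 ± 0.09. PSMG2 had 34.0, 15.4, 45.8 and 13.8 FPKM, with log2 ratios of 1.10 ± 0.08 and 1.66 ± 0.08. In all 5, the lower RIP value exceeded the higher Input value. Over the scaled Inputs of the second deposited table, PSMA4 (1.72 and 1.91) and PSMG2 (1.57 and 2.43) again passed 2-fold in both labels. PSMB1, PSMB2 and PSMG1 passed it in SW480 and were at 0.95, 0.96 and 0.85 in DLD-1. With the second-table Inputs exchanged, PSMB1 (0.66 in SW480, 1.54 in DLD-1) and PSMB2 (0.60 and 1.39) passed in DLD-1 instead, and PSMG1 again in SW480 (1.25 and 0.79).

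In the alpha ring, all 5 members that entered the ratios were above 0 in SW480 and 4 of 5 in DLD-1. Besides PSMA4, PSMA3 came close to the threshold in both labels, with 82.6, 40.9, 82.8 and 41.6 FPKM and log2 ratios of 0.999 ± 0.08 and 0.98 ± 0.08, just below 2-fold. PSMA1 and PSMA5 had ratios between 0.45 and 0.74 on the log2 scale. PSMA7, the most abundant member, was alone in this ring on the other side in DLD-1, at 0.02 ± 0.03 in SW480 and -0.66 ± 0.04 in DLD-1. Over the other Input it was at -0.31 ± 0.03 and -0.33 ± 0.04. Its sign depended on the table, since the scaled Inputs of the second table gave 0.90 and -0.20, and 0.15 and 0.55 when exchanged.

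In the constitutive beta ring, all 7 members were above 0 in both labels and over both Inputs. Their median log2 ratio was 0.62 in SW480 and 1.09 in DLD-1, and over the other Input 0.86 and 0.92. PSMB1, PSMB2 and PSMB6 were at least 2-fold above Input in SW480, and PSMB1, PSMB2, PSMB4, PSMB5 and PSMB7 in DLD-1. The smallest ratio in this ring was that of PSMB3, a structural subunit with 139.8, 131, 175 and 96.4 FPKM, at 0.09 ± 0.04 in SW480 and 0.85 ± 0.05 in DLD-1. PSMB4, also structural, reached 0.58 ± 0.04 and 1.36 ± 0.04.

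The constitutive catalytic subunits lay above Input in both labels, and 2 of their 3 inducible counterparts lay below. PSMB5, the chymotrypsin-like subunit, had 76.7, 49.7, 87.3 and 41.8 FPKM, with log2 ratios of 0.62 ± 0.05 in SW480 and 1.05 ± 0.06 in DLD-1. PSMB6, the caspase-like subunit, had 161, 58.6, 112 and 74.5 FPKM, with log2 ratios of 1.44 ± 0.06 and 0.58 ± 0.06. PSMB7, the trypsin-like subunit, had 87.7, 67.1, 114 and 53.0 FPKM, with log2 ratios of 0.38 ± 0.05 and 1.09 ± 0.06. For all 3, both RIP libraries lay above both Inputs. PSMB8, which takes the place of PSMB5, did so too, with 57.6, 19.04, 32.4 and 19.8 FPKM and log2 ratios of 1.55 ± 0.08 and 0.68 ± 0.08. The other inducible subunits were on the opposite side. PSMB9, which replaces PSMB6, had 8.93, 10.5, 8.69 and 12.7 FPKM, with log2 ratios of -0.21 ± 0.11 and -0.50 ± 0.12. PSMB10, which replaces PSMB7, had 4.49, 6.07, 4.24 and 9.18 FPKM, with log2 ratios of -0.36 ± 0.15 and -0.96 ± 0.15. Both RIP libraries lay below both Inputs for these 2 genes. Over the scaled Inputs of the second table, PSMB10 was at 0.13 and 0.12 instead, so its sign depended on the table, while PSMB9 stayed below 0 at -0.13 and -0.72. The inducible subunits made up 16.9% of the summed FPKM of these 6 genes in the Input labelled SW480 and 19.8% in the Input labelled DLD-1, and 17.9% and 12.6% in the RIP libraries of the same labels.

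**Figure D3:**
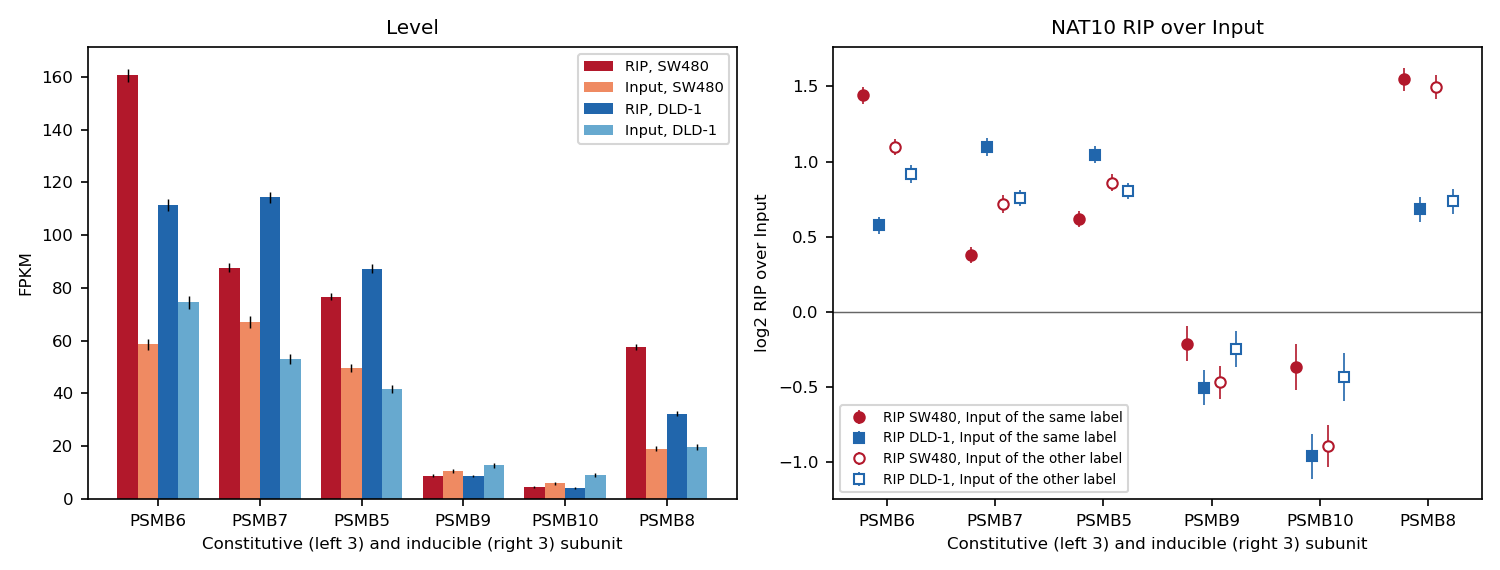
Left, FPKM of the 3 constitutive catalytic subunits and their 3 inducible counterparts in the 4 libraries of the RIP table, as bars from 0 with counting errors. Right, log2 NAT10 RIP over Input with counting SEs, filled for the Input of the same label and open for that of the other label. PSMB9 and PSMB10 lie below 0 in all 4 ratios, and the other 4 genes lie above 0 in all 4.

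In the 19S base, no ATPase that entered the ratios reached 2-fold in SW480. PSMC6 was the only one to do so in DLD-1, with 19.5, 24.2, 26.2 and 11.02 FPKM. Its log2 ratio was -0.30 ± 0.05 in SW480 and 1.18 ± 0.07 in DLD-1, and over the other Input 0.77 ± 0.07 and 0.11 ± 0.05. PSMC2 and PSMC5 were above 0 in all 4 ratios, whereas PSMC3 and PSMC4 changed sign between labels, with PSMC4 in DLD-1 the farthest below 0 at -0.57. PSMC5 came close to the threshold in DLD-1, at 0.996 ± 0.13. Among the base scaffolds, PSMD2 had 64.3, 31.3, 34.1 and 66.6 FPKM. Its log2 ratio was 1.02 ± 0.04 in SW480 and -0.95 ± 0.04 in DLD-1, but -0.05 ± 0.03 and 0.12 ± 0.04 over the other Input. PSMD4, a ubiquitin receptor of the base, had 82.1, 79.0, 81.4 and 65.2 FPKM and log2 ratios of 0.05 ± 0.04 and 0.32 ± 0.05. Over the scaled Inputs of the second table it was at 0.77 and 1.11, and with those Inputs exchanged at 1.13 and 0.76, so its size depended on the table. PSMD1, the other scaffold, was at -0.11 ± 0.04 and 0.39 ± 0.04.

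In the lid, 0 of 8 members reached 2-fold in SW480 and 3 did in DLD-1, namely PSMD7, PSMD12 and PSMD13. PSMD13 showed the largest split between labels, with 33.6, 33.6, 63.2 and 10.1 FPKM. Its log2 ratio was -0.00 ± 0.05 in SW480 and 2.54 ± 0.08 in DLD-1, and 1.64 ± 0.08 and 0.89 ± 0.05 over the other Input. PSMD7 had 67.1, 37.9, 77.8 and 25.6 FPKM and was above 0 in all 4 ratios, at 0.81 ± 0.05 and 1.57 ± 0.06, and at 1.36 ± 0.06 and 1.02 ± 0.05 over the other Input. Over the scaled second-table Input of the same label, however, PSMD7 was at -0.59 in SW480 and 0.37 in DLD-1. PSMD14, the deubiquitinase of the lid, had 27.5, 13.5, 26.1 and 19.3 FPKM and log2 ratios of 0.98 ± 0.05 and 0.42 ± 0.05. PSMD6 and PSMD12 were also above 0 in all 4 ratios, while PSMD3, PSMD8 and PSMD11 changed sign between labels.

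Among the chaperones of base assembly, PSMD10, also known as gankyrin, had the highest SW480 ratio, with 29.9, 7.57, 17.3 and 10.1 FPKM. Its log2 ratio was 1.85 ± 0.10 in SW480 and 0.72 ± 0.10 in DLD-1, and it passed 2-fold over the other Input for both RIP libraries, at 1.48 ± 0.10 and 1.10 ± 0.11. Its pseudogene PSMD10P1 had the reverse order, with 0.198, 3.82, 0 and 3.05 FPKM, and whether reads move between both was not tested. PSMD5 was at 0.25 ± 0.05 and 1.03 ± 0.06. PSMD9 was below 0 in all 4 ratios, at -0.45 ± 0.12 and -0.08 ± 0.13 over the Input of the same label, which does not exceed its counting error in DLD-1. Over the scaled Inputs of the second table it was at 0.10 and 0.84, so its sign depended on the table.

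The chaperones of the 20S core split. PSMG1 and PSMG2 were 2-fold above Input in all 4 ratios, but their partners in alpha-ring assembly, PSMG3 and PSMG4, were not. PSMG3 had 14.5, 27.2, 32.1 and 16.0 FPKM, with log2 ratios of -0.86 ± 0.08 in SW480 and 0.96 ± 0.09 in DLD-1, and -0.13 ± 0.10 and 0.23 ± 0.07 over the other Input. PSMG4 had 2.38, 2.56, 2.03 and 4.01 FPKM and was below 0 in all 4 ratios, at -0.08 ± 0.10 and -0.73 ± 0.10 over the Input of the same label. With PSMB9, PSMB10 and PSMD9, it made up the 4 members below 0 in all 4 ratios (9.09%), beside 26.5% of all genes. The highest FPKM of any of these 4 members was 12.7, for PSMB9 in the Input labelled DLD-1.

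Of the activators and the inhibitor, 2 passed 2-fold in DLD-1 (PSME2 and PSME4) and 0 in SW480. PSME1 and PSME2, the subunits of the interferon-inducible PA28 ring, were below 0 in SW480 and above 0 in DLD-1. PSME2 had 18.0, 26.0, 33.3 and 14.4 FPKM, with log2 ratios of -0.51 ± 0.06 and 1.15 ± 0.07, and of 0.30 ± 0.07 and 0.34 ± 0.05 over the other Input. PSME3, the nuclear PA28 gamma, and PSME4, the large activator PA200, were above 0 in all 4 ratios, between 0.13 and 1.10 on the log2 scale. PSMF1 had 38.0, 28.0, 27.5 and 45.7 FPKM, with log2 ratios of 0.43 ± 0.04 and -0.71 ± 0.04. PSMC3IP, which is not a subunit, was the only one of the 44 members to pass 2-fold in opposite directions. It had 5.43, 16.0, 9.76 and 4.19 FPKM and log2 ratios of -1.40 ± 0.11 and 1.05 ± 0.15. Over the other Input these became 0.31 ± 0.15 and -0.66 ± 0.10.

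Thereafter, the level of the members was compared between the lines. Of the 45 members with a mean Input FPKM of at least 1, 3 were at least 2-fold higher in the Input labelled SW480 and 2 in the Input labelled DLD-1. Among the 15931 genes that passed this filter, 13.1% were at least 2-fold higher in SW480 and 18.5% in DLD-1. The median log2 difference, SW480 over DLD-1, was 0.09 for the members and -0.07 for all genes. The 3 higher in SW480 were PSMC3IP (16.0 against 4.19 FPKM), PSMD13 (33.6 against 10.1) and PSMC6 (24.2 against 11.02). Their log2 differences were 1.71 ± 0.15, 1.65 ± 0.09 and 1.07 ± 0.08 (counting SE), followed by PSME2 at 0.81 ± 0.07 and PSMG3 at 0.73 ± 0.10. The 2 higher in DLD-1 were PSMC1 and PSMD2, with log2 differences of -1.55 ± 0.11 and -1.07 ± 0.04. The next were PSMF1 at -0.69 ± 0.04, PSMD8 at -0.65 ± 0.06 and PSMC4 at -0.61 ± 0.05. PSMD8, a lid subunit, had 138, 94.3, 105 and 148 FPKM, and the ATPase PSMC4 had 71.5, 55.5, 56.9 and 85.0.

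The Inputs of the second table ranked the lines much as the first did. The labels give 1 Input per line, so the Inputs of both tables may come from the same RNA. Their likeness is therefore no independent check. Across the 45 members, the log2 differences of both tables had Pearson's r = 0.84, and 4 members had opposite signs. PSMC3IP, PSMD13 and PSMC6 were again higher in SW480, by 1.44, 1.34 and 1.16 on the log2 scale, and PSMD2 was again higher in DLD-1, at -0.91. PSMC1 was at -0.13, so its difference between lines was seen in the RIP table and not in the second. In the RIP libraries, the order of the lines was the reverse. Across the same 45 members, the difference between the RIP libraries went against that between the Inputs, with r = -0.76 and 37 members of opposite sign. Among 11666 protein-coding genes the value was -0.88. Genes are not independent replicates, and these correlations are given as descriptions. PSMD2 was 0.90 higher in the RIP library labelled SW480 on the log2 scale, whereas PSMD13, PSMC3IP and PSME2 were lower there, at -0.89, -0.74 and -0.85. With 1 library per group, a difference of these genes in NAT10 RIP between the lines and an exchange of labels cannot be told apart.

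**Figure D4:**
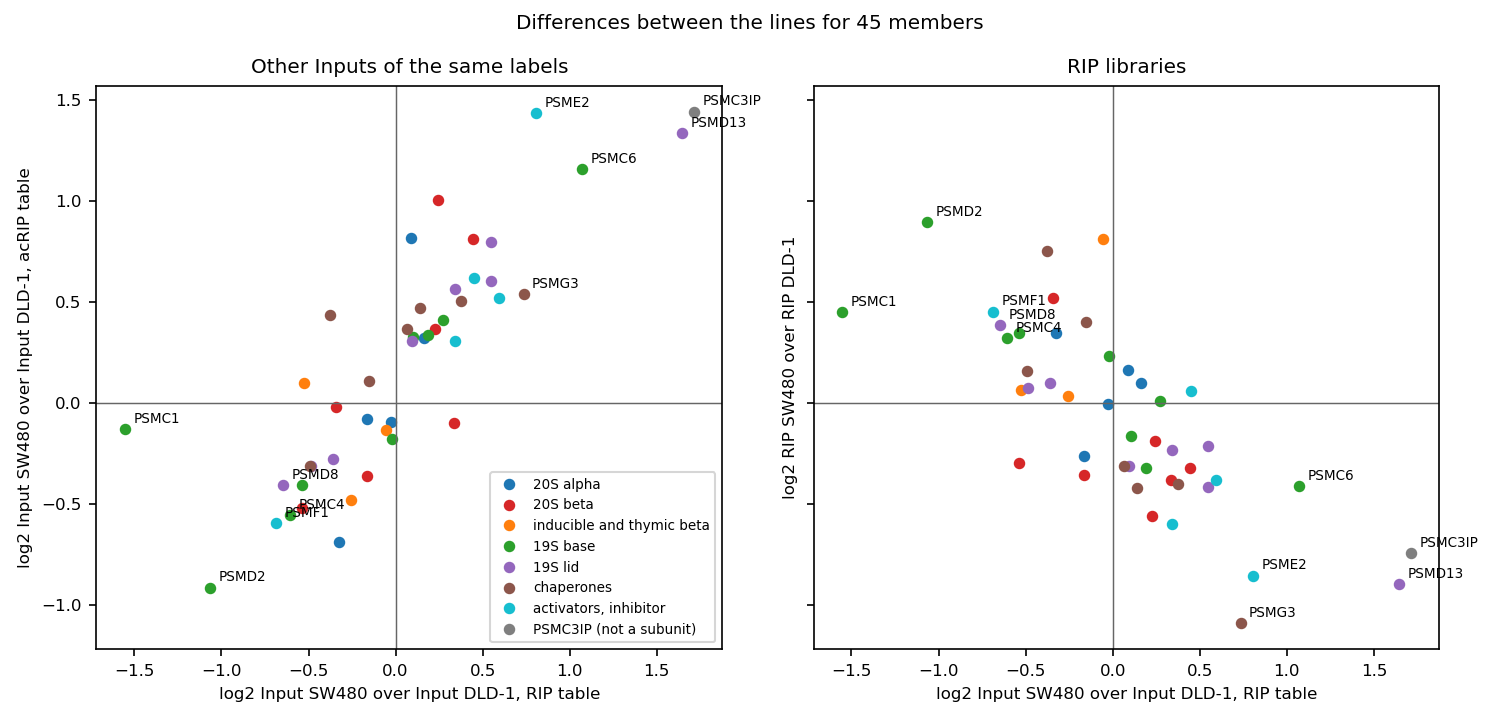
Log2 differences between the libraries labelled SW480 and DLD-1 for 45 members, with the Inputs of the RIP table on the horizontal axis. The vertical axis shows the Inputs of the second table on the left and the RIP libraries on the right. The points run upward on the left (r = 0.84) and downward on the right (r = -0.76).

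The third readout was the ac4C peak. The rate of genes with at least 1 peak was high among the members, at 41 of 49 in the SW480 list and 42 of 49 in the DLD-1 list. Of the 44 members that entered the ratios, 38 had a peak in SW480, 39 in DLD-1 and 34 in both. Of the 12324 genes that passed the same filter, 44.2% had a peak in SW480, 48.8% in DLD-1 and 34.4% in both. Among the protein-coding genes of that filter, these shares were 51.1%, 56.8% and 40.3%. In the list called on the pooled libraries, 43 of the 49 members had a peak, 40 of them among the 44. The share was 55.2% of all genes and 63.6% of the protein-coding genes. The members had a higher Input level than most genes, as given above, and the part of that level in the peak counts was not tested.

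All 7 constitutive beta-ring genes, all 4 activators and all 3 base subunits that are not ATPases had a peak in both lines. Without a peak in either line were PSMA8 and PSMB11, which had no reads, and PSMB9. Among the inducible catalytic subunits, PSMB8 had 1 peak with a listed fold enrichment over Input of 21.9 in SW480 alone, and PSMB10 had 1 peak in each line with folds of 9.89 and 3.93. The constitutive catalytic subunits PSMB5, PSMB6 and PSMB7 reached 69.7, 41.2 and 111 in the SW480 list and 272, 39.1 and 96.4 in that of DLD-1. A peak in SW480 alone was listed for PSMA3, PSMB8, PSMC3 and PSMG4, and in DLD-1 alone for PSMC5, PSMD3, PSMD12, PSMD10 and PSMF1. The 3 genes whose FPKM was low had peaks in both lines. PSMA2 reached 157-fold in SW480 and 125-fold in DLD-1, PSMA6 reached 89.5 and 156, and PSMC1 reached 62.5 and 198.

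**Figure D5:**
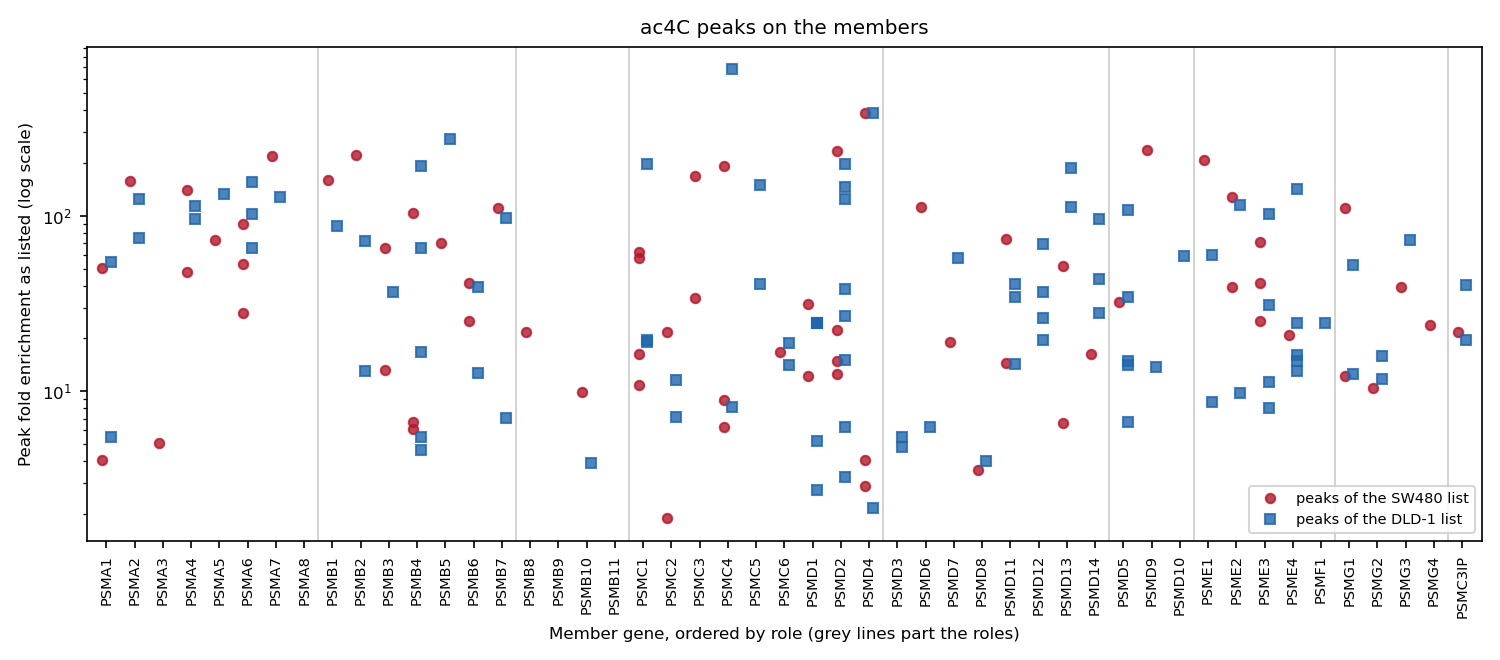
Listed fold enrichment, on a log axis, of each ac4C peak on the 49 members, with circles for the 68 peaks of the SW480 list and squares for the 97 peaks of the DLD-1 list. Columns without a symbol are members without a peak in that list, and PSMC4, PSMD4 and PSMB5 hold the highest values in DLD-1 at 680, 382 and 272.

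The members carried 68 SW480 peaks and 97 DLD-1 peaks, whose median folds were 31.9 and 26.7. The medians over all peaks of the lists were 19.5 and 14.6. The member peaks were longer, at a median spliced length of 270.5 bases in SW480 and 300.0 in DLD-1, beside 210.0 and 211 for all peaks. The most frequent of the authors' classes was coding sequence (CDS), with 42.6% in SW480 and 49.5% in DLD-1, beside 24.3% and 38.4% of all peaks. The class of 3' untranslated region held 30.9% and 23.7% of the member peaks, beside 53.0% and 41.5% of all peaks.

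Peaks of both lines coincided more often on the members than over the lists. As given above, the member peaks were longer and of higher median fold, and the members had a higher Input level. The part of these in the overlap was not tested. Of the SW480 member peaks, 57 of 68 (83.8%) shared at least 1 base with a DLD-1 peak on the same strand, beside 55.3% of all SW480 peaks. Of the DLD-1 member peaks, 54 of 97 (55.7%) did, beside 36.5%. When at least 50% of each peak had to overlap, 43 member peaks were shared in each list, or 63.2% and 44.3%, beside 36.2% and 24.7% of all peaks. The 59 overlapping pairs lay on 37 genes, and the folds of 29 pairs were within 2-fold of each other.

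The 5 shared peaks with the highest smaller fold lay toward the 3' end of the gene in both lines. The first was on PSMD4 (chr1:151266682-151267389, plus strand, GRCh38, in SW480), at 383-fold in SW480 and 382-fold in DLD-1. The second was on PSMC4 (chr19:39980639-39981381, plus strand), an ATPase, with folds of 191 and 680. The third was on PSMA7 (chr20:62136765-62138269, minus strand), with folds of 220 and 127. The fourth was on PSMA2 (chr7:42917426-42918171, minus strand), with folds of 157 and 125. The fifth was on PSMD2 (chr3:184307933-184309024, plus strand), with folds of 232 and 124. The peaks of PSMD4, PSMA2 and PSMD2 were classed as CDS and those of PSMC4 and PSMA7 as exon.

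The lists also give, for each peak, the sites of the motif CNNCNNCNNCNN, the 12-base pattern of evenly spaced cytidines that is linked to ac4C. At least 1 site was listed in 36 of 68 member peaks of SW480 (52.9%, exact 95% binomial interval 40.4 to 65.2) and in 53 of 97 of DLD-1 (54.6%, 44.2 to 64.8). All peaks of the lists had a site in 56.2% and 55.1% of cases, which lies within both intervals. Several peaks can lie on the same gene, so they are not independent and the intervals are descriptions. The member peaks were also longer, so these shares are not like for like. Per 1000 spliced bases, however, the member peaks held 2.62 sites in SW480 and 2.78 in DLD-1, beside 5.13 and 4.64 over all peaks. The peak of PSMD4 with the highest fold in SW480 had 0 sites, as had the shared peaks of PSMA7 and PSMA2, whereas those of PSMC4 and PSMD2 had 2 sites each in SW480.

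The gene with the most peaks was PSMD2, with 4 in SW480 and 8 in DLD-1, and its motif sites could be read in part. A DLD-1 peak in its CDS (chr3:184299847-184300519, plus strand), with a fold of 198, held 2 sites, and both fell inside the promoter window around a PSMD2 start in RefSeq (GRCh38.p14), which lies within the annotated gene. They are shown because they are the only listed sites of member peaks that the sequences used here cover and that held the pattern. The capitals mark the 12 bases of the site, at chr3:184300338-184300349 and chr3:184300382-184300393, written 5′ to 3′ on the plus strand as DNA.
PSMD2 first site: attcgttCTTCTACAACTTccatgactt
PSMD2 second site: ctcaaatttCTGCGTCCACACtatggcaaa
Only covered sites that held the pattern were kept, so the C at its 4 positions in each follows from that choice. Of 165 listed sites inside promoter windows of any gene, 161 held the pattern at the listed position. A match describes these letters and does not show an acetylated base.

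Other genes of the pathway were taken from a list of 25, covering further subunits, assembly and shuttle factors, regulators of proteasome genes and the ubiquitin genes. All 25 entered the ratios, of which 6 were at least 2-fold above Input in SW480 and 8 in DLD-1, while 0 and 1 were 2-fold below. All genes had 15.6% and 15.1% above, and 16.0% and 19.2% below. Over the other Input, 5 and 6 were above and 0 below, beside 9.24% and 9.36% of all genes above. ADRM1, a ubiquitin receptor of the 19S base, was above by 1.74 ± 0.06 and 1.05 ± 0.06 on the log2 scale. POMP, the maturation factor of the beta ring, had log2 ratios of 1.72 ± 0.09 and 1.12 ± 0.10, and UBB, a polyubiquitin gene, of 1.83 ± 0.03 and 2.08 ± 0.03. These 3 passed 2-fold over both Inputs of the RIP table. Over the scaled Inputs of the second table, only POMP in SW480 still did, at 1.56, with 0.81 in DLD-1. ADRM1 was at 0.81 and -0.00, and UBB at 0.17 and 0.22. The 1 gene below was SEM1, a small lid subunit, at -1.05 ± 0.07 in DLD-1 and -0.14 ± 0.06 in SW480. Over the second table its sign was the reverse, at 0.45 in DLD-1 and 1.08 in SW480. For the 25 genes, the median log2 ratio was 0.39 (SW480) and 0.32 (DLD-1), beside 0.05 and -0.05 for all genes.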

How the data were processed

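RIP-seq and acRIP-seq of SW480 and DLD-1 cells gave 6 libraries with 1 per group, grouped by the titles in the labels. The authors deposited FPKM values per Ensembl gene for RIP and Input, and a second table whose Input values are read here as FPKM, since their unit is not named. Their columns of RIP to Input ratios were not used. The deposited peak lists give, per peak, a fold enrichment (ratio of acRIP over Input), a p-value and a number of motif sites, handled as a score; they were called per line and on pooled libraries. The submitters' processing notes name cutadapt 2.5, HISAT2 2.1.0 and GRCh38; the counting tool, its strand setting and the peak caller are not given in the sources used here. Peak starts count from 0 and were moved by 1 base.

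The proteasome genes, the lists and the rule for named genes were chosen with earlier results of these data known. The rule named all members by role, with full values for the catalytic pairs, the 5 highest and lowest ratios of members with 1 sign in both labels, the 5 largest Input differences in each direction, opposite calls and the 5 strongest shared peaks. Ratios used a pseudocount of 1 FPKM over genes that reached 1 FPKM in each Input, and 2-fold counted as a call. Second-table Inputs were scaled by the median ratio of protein-coding genes (1.44 in SW480, 1.50 in DLD-1). Low FPKM values are whole multiples of 1 read, and whole reads within 0.002 were solved for 23511 of 23515 genes, as lower limits, for counting SEs. Depth of the acRIP libraries and of the second-table Inputs is unknown. The reads solver and limma were tested on simulated data. Alternatives were another pseudocount, other filters, centering, other Inputs, 1.5-fold, stricter peaks and limma 3.58.1 (R 4.3.3) with RIP against Input and the line as a term. Genes and positions were matched to RefSeq (GRCh38.p14) for 49 of 49 members.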

Additional observations from a re-analysis of the deposited data

Results flagged for a closer look

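For 8 members, the log2 ratio of RIP to Input was on opposite sides of 0 in the 2 labels and differed by more than 1. With 1 library per group, none of these differences was tested. Opposite signs of any size were seen for 34.1% of the members, beside 43.6% of all genes and 47.6% of the protein-coding genes. The share of all genes that also differed by more than 1 was not worked out. The differences, SW480 minus DLD-1 on the log2 scale, were -2.54 for PSMD13, -2.45 for PSMC3IP, -1.82 for PSMG3, -1.66 for PSME2 and -1.48 for PSMC6, and 1.03 for PSMD8, 1.14 for PSMF1 and 1.964 for PSMD2. Over the Input of the other label, PSMD13 and PSMC6 were above 0 in both labels, as was PSME2, and PSMF1 was below 0 in both. PSMG3, PSMD8 and PSMD2 still had opposite signs but were within 0.23 of 0 on the log2 scale, and PSMC3IP was at 0.31 and -0.66. Whether the libraries were exchanged was not tested.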

How the results depend on the processing

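With 1 library per group, nothing here has a replicate check, and depth alone left a counting SE of up to 0.15 on a log2 ratio. Calling at 1.5-fold gave 17 higher and 3 lower members in SW480 (28.3% and 25.7% of all genes), 25 and 5 in DLD-1 (26.4% and 30.4%), 13 higher in both labels (9.43%), and 6 and 5 for the Input difference (22.6% and 28.3%). The second-table Input of the other label, chosen after seeing the data, gave 14 and 0 in SW480 (12.3% and 9.92% of all genes). It gave 9 higher in DLD-1 (12.7%). The Input of the other label gave 0 lower in SW480 (11.7%) and 9 higher in DLD-1 (9.36%). Centering gave 2 lower in each label (19.5% in SW480, 20.9% in DLD-1). In SW480, 0 were lower at an Input FPKM of at least 10 (13.0%) or without PSMC3IP (16.0%). In DLD-1 a pseudocount of 0.1 gave 1 lower (22.8%). Limma was fitted with RIP against Input and the line as a term. Its only replication is the lines, which are different cells and not replicates. Limma called 0 of 44 members (smallest Benjamini-Hochberg adjusted p = 0.267) and 9 of 12324 genes. Its unadjusted p was under 0.05 for 5 members and 1421 genes. The Input difference became 5 higher and 0 lower with the second table (12.3% and 15.4% of all genes). Between RIP libraries it was 0 and 1 (10.7% and 6.85%). Overlap of 50% of each peak left 63.2% and 44.3% shared. Directions reversed over the other Input for PSMC3IP (0.31 in SW480, -0.66 in DLD-1) and PSMD2 (-0.0494 in SW480), and over the other second-table Input in DLD-1 for PSMC3IP (-0.83) and PSMD7 (-0.38). Between RIP libraries, PSMC6 (-0.41), PSMC1 (0.45), PSMC3IP (-0.74), PSMD2 (0.90) and PSMD13 (-0.89) reversed. The causes were not tested. Stricter peak lists were made by p-value, by listed false discovery rate and by fold. They left 37 to 41 members with a peak in SW480 and 38 to 42 in DLD-1. A separate cut, at each list's median fold, kept 44 member peaks in SW480 and 66 in DLD-1. Of these, 56.8% and 59.1% had a motif site. For all genes and all peaks, the shares under these cuts were not worked out, so the member values have no background here.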
